A study of Caenorhabditis elegans with 2 samples.

Results

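Described here are the HSF-1 binding peaks that hold a few heat shock elements, which are inverted repeats of GAA recognised by HSF-1. They are the peaks of the pooled list whose summit has between 1 and 5 perfect elements lying wholly within 100 bp, and there are 205 of them among 2935 pooled peaks. Of the other peaks, 2447 had no perfect element in that window and 283 had 6 or more. A perfect element was 13 bp long, with 3 units of GAA or its reverse complement TTC in alternating orientation and gaps of 2 bp, on either strand and without mismatch, and every start position was counted. Chromatin immunoprecipitation followed by sequencing was done on whole Caenorhabditis elegans, young adults of 63 h, in 2 biological replicates of 1 group. The worms, of strain RW12254, carried st12254[hsf-1::TY1::EGFP::3xFLAG] I, an insertion made by CRISPR that fuses HSF-1 to enhanced green fluorescent protein with TY1 and FLAG tags, and an antibody against that fluorescent protein was used for the precipitation. The animals came from bleached cultures synchronised by larval starvation, no heat treatment is named, and a peak in whole worms does not say which tissue or which share of the nuclei gave it. No read numbers appear in the sources used here. Depth is therefore unknown, and the intervals printed cover the counting of peaks or units only.

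HSF-1 is the transcription factor of the heat shock response, which raises chaperone genes when proteins misfold. HSF proteins bind DNA as trimers, with a DNA-binding domain on each GAA unit, so that alternating units of GAA and TTC make up a binding element. In worms HSF-1 is also known for its part in larval development, reproduction and lifespan without heat.

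Elements were read from the ce11 reference, plus strand, with 12 bp on each side, and are printed in lower case with capitals for the GAA and TTC units that complete an element within 100 bp of the summit. Alternating units that continue an element beyond that distance stay in lower case and were not counted. They stand before the first site at F44E5.4 and F44E5.5 and after the element of hsp-3. A promoter window reached from 1000 bp before any transcript start of a protein-coding gene to 200 bp after it. Of the 9 strongest peaks with 1 element in such a window, 8 are shown first, as examples of high signal. The ninth, at dnj-12 and mtx-1, is sixth of them in pooled signal, between klp-7 and C16C10.13, and its sequence is not printed. It is the only one of the 9 with a T before a GAA unit, which 1 of its units has. Those of hsp-16.2 and hsp-16.41, a divergent pair of small heat shock protein genes, and of the mitochondrial HSP70 gene hsp-6 follow as known chaperone loci.
hsp-110 and rpn-3 (chrIII:8447122-8447158): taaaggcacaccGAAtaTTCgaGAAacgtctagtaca
hcp-3 (chrIII:9617053-9617089): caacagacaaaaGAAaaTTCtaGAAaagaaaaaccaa
R107.5 and cls-2 (chrIII:9054029-9054065): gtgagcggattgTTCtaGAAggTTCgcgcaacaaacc
Y22D7AL.10 and hsp-60 (chrIII:1619033-1619069): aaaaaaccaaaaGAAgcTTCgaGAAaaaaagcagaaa
klp-7 (chrIII:10807429-10807465): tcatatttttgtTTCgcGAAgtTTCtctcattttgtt
C16C10.13 and hrde-1 (chrIII:4176333-4176369): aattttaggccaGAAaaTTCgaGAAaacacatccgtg
bath-36 and cyn-7 (chrV:15187772-15187808): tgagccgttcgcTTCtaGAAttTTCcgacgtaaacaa
cyp-31A3 and memi-1 (chrIV:4760834-4760870): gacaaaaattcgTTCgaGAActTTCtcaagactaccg
hsp-16.2 and hsp-16.41 (chrV:1805157-1805193): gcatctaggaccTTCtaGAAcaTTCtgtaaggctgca
C37H5.5 and hsp-6 (chrV:4827043-4827079): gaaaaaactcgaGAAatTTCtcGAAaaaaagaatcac
The strongest 3 peaks outside every promoter window also had a single element, and they are shown for comparison of the same 3 units at another position.
near C30E1.4 (chrX:16929840-16929876): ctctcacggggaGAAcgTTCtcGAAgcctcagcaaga
near str-118 (chrV:10049416-10049452): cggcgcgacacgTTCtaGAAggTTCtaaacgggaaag
near Y17G7B.17 (chrII:12102602-12102638): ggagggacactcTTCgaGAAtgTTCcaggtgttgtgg
Elements with a T before a GAA unit, read on the strand of that unit, are shown from a pair of promoter peaks with pooled signals of 181 and 55.2, weaker than that of dnj-12 and mtx-1 at 1996, and the feature is taken up with the letters of the gaps.
inos-1 (chrII:11700772-11700808): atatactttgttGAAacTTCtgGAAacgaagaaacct
hsp-3 (chrX:6090407-6090443): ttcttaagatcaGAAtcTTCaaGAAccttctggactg
Peaks with several elements are shown for the ways in which units were arranged, as separate sites, as a run of 4 units, as a run of 6 beside a further site, and as 4 sites in 1 window.
F44E5.4 and F44E5.5 (chrII:11759357-11759554): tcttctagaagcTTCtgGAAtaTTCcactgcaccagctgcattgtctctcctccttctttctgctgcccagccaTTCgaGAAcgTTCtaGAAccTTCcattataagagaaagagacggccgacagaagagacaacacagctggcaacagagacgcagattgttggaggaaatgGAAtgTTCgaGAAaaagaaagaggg
C23G10.7 and rpn-2 (chrIII:6198541-6198582): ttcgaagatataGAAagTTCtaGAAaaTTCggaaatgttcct
near tmed-12 (chrX:161293-161364): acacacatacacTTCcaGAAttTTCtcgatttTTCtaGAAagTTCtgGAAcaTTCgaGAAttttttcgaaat
near Y38F1A.4 (chrII:12974676-12974848): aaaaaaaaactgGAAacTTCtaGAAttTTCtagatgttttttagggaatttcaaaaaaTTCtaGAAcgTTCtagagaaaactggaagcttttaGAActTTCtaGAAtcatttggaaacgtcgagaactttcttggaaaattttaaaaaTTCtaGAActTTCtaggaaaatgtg

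Peaks with 1 to 5 elements were stronger in promoter windows than elsewhere, in the pooled analysis and within either replicate, though with 2 to 5 elements alone the intervals overlapped. There were 95 members in a promoter window, which was 46.3% (95% Wilson interval 39.6 to 53.2), and 110 at other positions. Over all pooled peaks 45.6% lay in a promoter window, so the members' share was close to the background. Signal, a value set by the peak caller, is compared here only within a list. Its median in the pooled list was 181 (order-statistic interval 127 to 259) in the promoter members and 99.5 (89.7 to 113) in the other members, a ratio of 1.82. In replicate 1 the medians were 70.5 (55.4 to 116) and 42.3 (37.3 to 46.1) for promoter and other members, a ratio of 1.67. In replicate 2 they were 98.1 (76.5 to 148) and 60.1 (53.3 to 68.4), a ratio of 1.63. The intervals of the promoter and other members did not overlap in any of the 3 lists. No test was made, since peaks are not replicates of a condition and there was no second group of samples.

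The excess lay in the upper part of the promoter class. Of the 95 promoter members, 25 (26.3%, 18.5 to 36) reached a signal of 500 or more, against 4 of the 110 other members (3.64%, 1.42 to 8.98). Among promoter peaks with no element, 31 of 1210 did (2.56%, 1.81 to 3.61). Among all peaks with no element it was 37 of 2447 (1.51%, 1.10 to 2.08). Such signals were not particular to promoter members. Of the 283 peaks with 6 or more elements, 86 reached 500 (30.4%, 25.3 to 36), and 77 of those lay outside promoters. Promoter members held 20 of the 100 strongest pooled peaks, other members 3, peaks with no element 22 and peaks with 6 or more elements 55. The lower quartiles were closer together, at 96.6 in promoter members and 77.4 in other members. Many promoter members with a perfect element thus had a signal as low as peaks elsewhere.

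Promoter peaks without an element had a median of 95.9 (92.0 to 99.5), so the promoter members were 1.89 times as strong by pooled signal, 1.62 times in replicate 1 and 1.81 times in replicate 2. The other members stood closer to their counterpart, with a median 1.21 times the 82.4 (80.0 to 84.2) of peaks with no element outside promoters, and 1.15 and 1.25 times in replicates 1 and 2. Among peaks with exactly 1 element the contrast of position was larger, 224 (131 to 323) in 73 promoter members and 97.5 (81.2 to 125) in 64 other members, a ratio of 2.30 by pooled signal, 2.19 in replicate 1 and 1.81 in replicate 2. With 2 to 5 elements the medians were 114 (96.3 to 220) in 22 promoter members and 99.7 (85.8 to 114) in 46 other members, a ratio of 1.15, with 1.48 in replicate 1 and 1.27 in replicate 2, and the intervals overlapped in all 3 lists. Whether these contrasts differ from those with 1 element was not tested. The 283 peaks with 6 or more elements had a median of 332 (278 to 403). Their windows were masked as repetitive over 64.2% to 100% of their length. When overlapping elements were merged and 1 to 5 distinct sites were asked for, many of those repeat peaks entered, the set grew to 458 peaks, and the promoter to other ratio was 0.989.

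**Figure D1:**
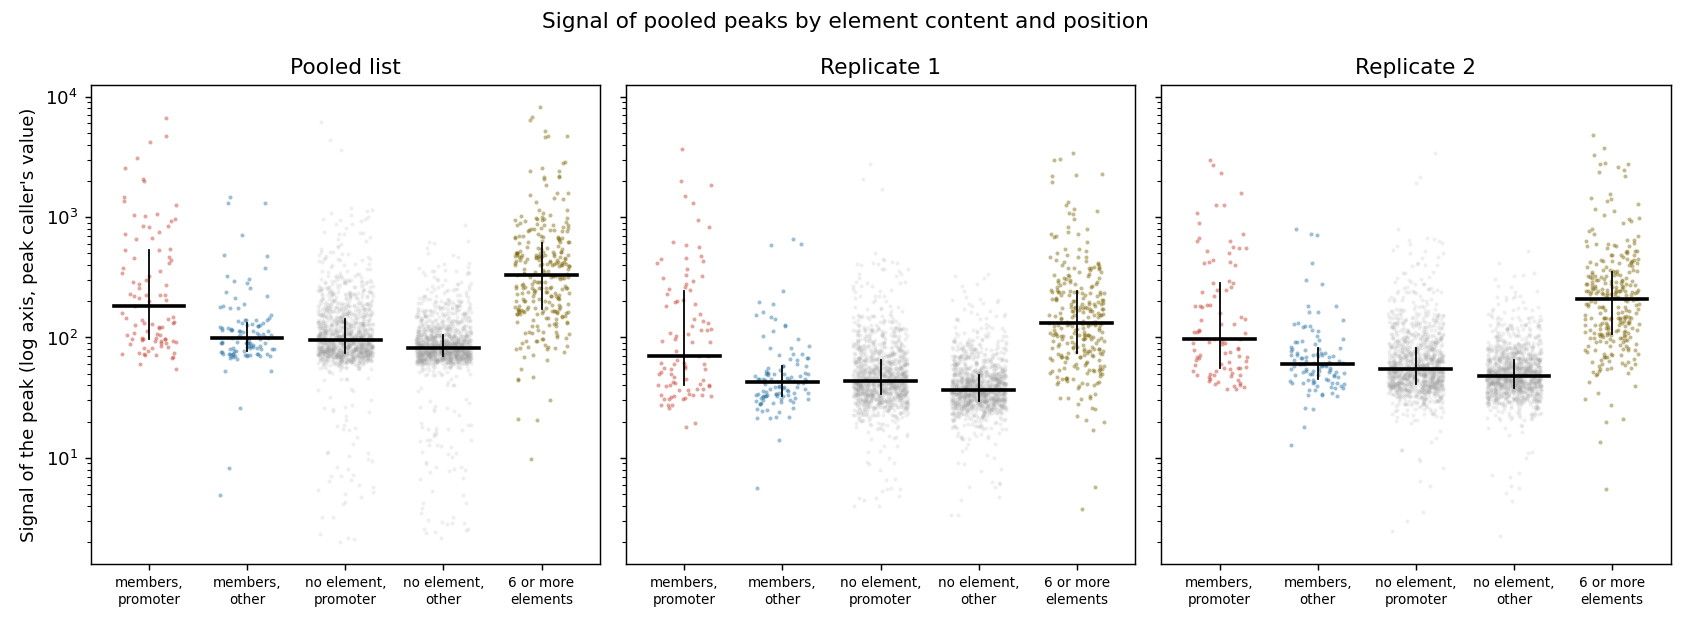
Signal of pooled peaks (log axis, peak caller's value) in 3 panels, for the pooled list and for either replicate, by element content and position. Each dot is 1 peak, the thick line is the median and the thin line spans the quartiles. The promoter members have a median of 181 in the pooled list, against 99.5 in the other members and 95.9 in promoter peaks with no element.

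Promoter windows of 126 of the 19973 protein-coding genes (0.631%) held a member. The gene lists used below hold 140 genes of protein folding, protein degradation and stress regulation, of which 135 were found by symbol in the annotation, and 20 of these (14.8%) had a member in the promoter window. A pooled peak of any kind lay in that window at 54 of the 135 and at 1524 of the 19973 genes. Listed genes thus had more peaks of any kind, not members alone. The lists were drawn up with earlier results of these data known, so these counts describe the genes and test nothing. The 20 genes share 16 members, since 4 pairs of listed genes use the same peak. The 16 had a median signal of 647 (279 to 1996) by pooled signal, 293 in replicate 1 and 361 in replicate 2. The other 79 promoter members had 134 (107 to 206), 60.2 and 87.9. They include the member at hsp-90, whose listed symbol daf-21 had no match. In both replicate lists were 15 of the 16, and 41 of the 79 (51.9%).

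Heat-inducible heat shock protein genes had a member at 5 of 9 annotated genes. The strongest member of all lay between F44E5.4 and F44E5.5, divergent genes of the HSP70 family (chromosome II, 11759232 to 11759743, intergenic). It had a signal of 3640.5 in replicate 1, 2970.4 in replicate 2 and 6602 in the pooled list. Of the 10 strongest members in promoters it alone held several elements, 5 starts in 3 sites within 100 bp of the summit. Its first site goes on past that distance as further alternating units, whose starts the rule leaves out. A member shared by hsp-16.2 and hsp-16.41, which encode small heat shock proteins, had its summit 173 bp and 48 bp before their starts (chromosome V, 1805063 to 1805239, intergenic), with 191 in replicate 1, 159 in replicate 2 and 359 in the pooled list. The HSP70 gene hsp-70 had a member 92 bp upstream, in an annotated intron (chromosome I, 9322534 to 9322675), with 137, 148 and 279 in the same order. The single elements of these last 2 members lay 45 bp and 25 bp from the summit. No member lay at the 8 genes listed for other small heat shock proteins.

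Cytosolic chaperone and cochaperone genes had a member at 5 of 16 genes matched by symbol. The HSP90 gene was listed by its older symbol daf-21, had no match and is outside these counts. Its member, annotated to hsp-90 and shared with C47E8.4 (chromosome V, 14684770 to 14685073), held 2 elements. It had 33.3 in replicate 1, 64.3 in replicate 2 and 96.9 in the pooled list, and was missing from the thresholded list of replicate 1. The peak between hsp-110, which encodes an HSP110 nucleotide exchange factor, and rpn-3, a subunit gene of the proteasome lid (chromosome III, 8446886 to 8447326, intergenic), had 1992 in replicate 1, 2719.6 in replicate 2 and 4697 in the pooled list. The HSP40 gene dnj-12 shared its member with the metaxin gene mtx-1 (chromosome I, 14756687 to 14757049), with 939 and 1086 in replicates 1 and 2. At bag-1, which encodes an HSP70 nucleotide exchange factor (chromosome I, 6564435 to 6564767, 140 bp upstream), the signal was 429.8 in replicate 1 and 627 in replicate 2. At ahsa-1, the gene of an HSP90 activator (chromosome V, 15085480 to 15085710), it was 326 and 521. The fifth gene was hsb-1, whose product binds HSF-1 and restrains it, with 276 in replicate 1 and 261 in replicate 2 at a summit 481 bp upstream of hsb-1 and 135 bp upstream of the spindle positioning gene let-99 (chromosome IV, 12567593 to 12567817). Of the 14 genes of the cytosolic chaperonin and prefoldin 11 had a pooled peak in the promoter window, and none of the 14 had a member.

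Genes of the organelle chaperones and of protein degradation followed at lower counts. Of 13 mitochondrial quality control genes 3 had a member. The chaperonin gene hsp-60 and the cochaperonin gene Y22D7AL.10 shared a peak (chromosome III, 1618870 to 1619280, intergenic) of 1297 in replicate 1 and 1255 in replicate 2, with its summit 166 bp upstream of Y22D7AL.10 and 647 bp upstream of hsp-60. The member at hsp-6 (chromosome V, 4827013 to 4827215) had 156 and 182.5, and C37H5.5 shares its window.

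Of 17 genes of endoplasmic reticulum folding and stress 2 had a member. The PERK kinase gene pek-1 (chromosome X, 11414979 to 11415120, 135 bp upstream) had 96.4 in replicate 1 and 181 in replicate 2. The BiP gene hsp-3 (chromosome X, 6090183 to 6090486, in a coding exon 136 bp downstream of a start) had 18 and 37.4, the lowest of the 16, with its element 90 bp from the summit and the peak missing from the thresholded list of replicate 1. Of 33 proteasome genes 3 had a member, rpn-3, the base subunit gene rpn-2 (454 in replicate 1 and 636 in replicate 2) and the catalytic subunit gene pbs-5 (55.4 and 69.4). Of 15 ubiquitin and conjugation genes 2 had one, the activating enzyme gene uba-1 (310.2 and 426) and the SUMO conjugating enzyme gene ubc-9 (252 and 296). Of 11 stress regulators only hsb-1 had one.

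**Figure D2:**
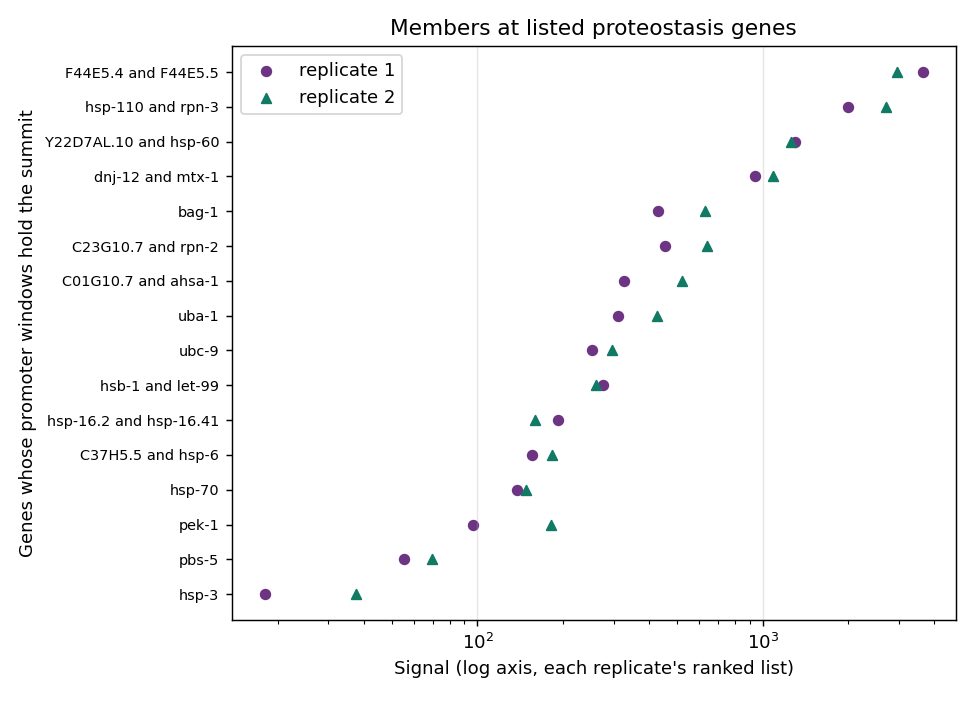
Signal (log axis) in replicate 1 (circles) and replicate 2 (triangles) of the 16 members at a listed gene matched by symbol, strongest in the pooled list at the top. Values run from 3640.5 and 2970.4 between F44E5.4 and F44E5.5 to 18 and 37.4 at hsp-3, and both replicates give nearly the same order.

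The remaining strong promoter members lay at genes of chromosome segregation, germline silencing and other functions. The member upstream of hcp-3, which encodes the centromeric histone H3 variant (chromosome III, 9616945 to 9617288, intergenic, 643 bp upstream), had 1862 in replicate 1, 2327 in replicate 2 and 4181 in the pooled list. The member 988 bp upstream of cls-2, the gene of a CLASP microtubule regulator, and 270 bp upstream of R107.5 (chromosome III, 9053824 to 9054269) had 1499.6, 1581 and 3069.7. At klp-7, a kinesin-13 gene (chromosome III, 10807266 to 10807576, in an intron, 919 bp upstream of a start), the values were 819.5, 1251 and 2066. These 3 genes act on centromeres or spindle microtubules, and they are named by rank of signal, not as a tested group.

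The member 48 bp upstream of C16C10.13 and 233 bp upstream of hrde-1, the gene of a nuclear Argonaute of heritable RNA interference, had 582 in replicate 1 and 888 in replicate 2 (chromosome III, 4176253 to 4176520). That between bath-36 and the cyclophilin gene cyn-7 (chromosome V, 15187660 to 15187988) had 619 and 730.1. That at cyp-31A3, a cytochrome P450 gene, and memi-1, which acts at the exit from meiosis, had 563 and 676 (chromosome IV, 4760732 to 4761017). All 10 strongest promoter members were in both replicate lists.

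Outside promoter windows the strongest 3 members stood apart from the rest. Near C30E1.4 (chromosome X, 16929623 to 16930127, intergenic, 5913 bp from the nearest protein-coding start) the signal was 663 in replicate 1, 799 in replicate 2 and 1475 in the pooled list. Near str-118, a chemoreceptor gene (chromosome V, 10049271 to 10049566, intergenic, 2726 bp upstream), it was 603, 711 and 1308. Near Y17G7B.17 (chromosome II, 12102428 to 12102746, intergenic, 2612 bp upstream) it was 583, 716 and 1301. Each had its single element within 19 bp of the summit, in a window masked over 0% to 25.4% of its length.

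The next was near F58G1.7 (chromosome II, 12944603 to 12945083, in a noncoding exon), with 242 in replicate 1, 415 in replicate 2 and 715 in the pooled list. The other 6 of the 10 strongest lay near Y111B2A.12, D2030.12, pde-2, vha-14, bath-34 and cyn-9, with pooled signals between 295 and 481. They were 1078 to 3756 bp from the nearest start, and all 10 held exactly 1 element and were in both replicate lists. By annotation, 59 promoter and 53 other members were intergenic and 18 and 32 lay in introns. Coding exons held 14 of the 205 members (6.83%, 4.11 to 11.1), against 538 of the 2447 peaks with no element (22%, 20.4 to 23.7).

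Most members had a single element. There were 137 with 1 start, 24 with 2, 13 with 3, 12 with 4 and 19 with 5. Of the 68 with 2 to 5 starts, 36 had them in 1 site, because a run of alternating units contains an element start every 5 bp, and 115 of the 162 pairs of neighbouring starts were 5 bp apart. Merged into distinct sites, 173 of the 205 members had 1 site. The longest run had 3 units in 144 members, 4 in 30, 5 in 19, 6 in 6 and 7 in 6. The strongest member with a run of 7 units lay in an intron near W05F2.4, 6838 bp from the nearest start (chromosome I, 3393318 to 3393393), with 113 in replicate 1, 115 in replicate 2 and 237 in the pooled list.

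Signal was not higher in members with 2 to 5 elements than in those with 1. The median pooled signal was 131 (105 to 177) with 1 element and 101 (93.1 to 114) with 2 to 5. Among the latter it rose with the count, at 91.4, 101, 104 and 121 with 2, 3, 4 and 5 starts. The share in promoters was 73 of 137 with 1 element and 22 of 68 with 2 to 5, and repeat masking moved with the number. At least 50% of the window of 100 bp on each side of the summit was masked in 22 of 137 members with 1 element and in 51 of 68 with 2 to 5, and the part of masking in the signal was not tested. Within promoters the medians were 224 (131 to 323) with 1 element and 114 (96.3 to 220) with 2 to 5, and the intervals overlapped. At the upper limit of the class, the 19 members with 5 elements had a median of 121 and the 19 peaks with 6 elements one of 108. At the edge of the window, 3 members whose nearest element ended in the last 10 bp had a median of 105, and 4 element-free peaks with an element in the next 10 bp had one of 83.2.

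Over all members the nearest element lay closer to the summit outside promoters, and with exactly 1 element the intervals of the classes overlapped. The centre of the nearest element was a median of 23 bp (19 to 26) from the pooled summit. It lay within 20 bp in 92 of the 205 members (44.9%, 38.2 to 51.7). In promoter members the median was 27 bp (25 to 32), and 31 of 95 (32.6%, 24.0 to 42.6) were within 20 bp. In the other members it was 17.5 bp (12 to 23), and 61 of 110 (55.5%, 46.1 to 64.4) were within 20 bp. The summit fell inside an element in 13 of 95 promoter members and in 31 of 110 other members.

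Members with several elements have more chances of a near one, and they were more frequent outside promoters. With exactly 1 element the medians were 31 bp (26 to 36) in promoters and 23 bp (18 to 28) elsewhere, and the intervals overlapped. Even placement of 1 element over the positions that the rule allows would put 21.7% within 20 bp. Of the members with 1 element 46 of 137 (33.6%, 26.2 to 41.8) were that near, 18 of 73 in promoters (24.7%, 16 to 35.6), where the interval includes the even share, and 28 of 64 elsewhere (43.8%, 32.3 to 55.9). Measured from each replicate's own summit, the medians with 1 element were 29 bp (22 to 37) in promoter and 28.5 bp (20 to 34) in other members in replicate 1, and 31 bp (25 to 41) and 26 bp (21 to 33) in replicate 2, with overlapping intervals in both. Over all promoter and other members they were 28 bp and 21.5 bp in replicate 1 and 27 bp and 20 bp in replicate 2, and these intervals overlapped too. The most frequent interval width, 304 bp, was shared by 144 of the 205 members and went with low signal. In these the median distance was 29 bp (20 to 35) in 51 promoter and 20 bp (12 to 23) in 93 other members, with overlapping intervals. In those of other widths it was 26.5 bp (22 to 32) in 44 promoter and 13 bp (9 to 19) in 17 other members.

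Density per base does not use the nearest-element rule and counts every element. Around promoter summits with at most 5 elements, there were 8.65 elements per 10 kb of offset positions below 20 bp, 9.20 from 20 to 40 bp, 6.13 from 40 to 60 bp and 2.48 from 60 to 94 bp. At other positions the same bins held 21.5, 10.4, 5.01 and 2.51. From 500 to 1000 bp the density was 1.14 around promoter summits and 3.26 around the others, and the whole genome held 1.69 elements per 10 kb. Signal did not follow the distance closely. Promoter members with an element at 0 to 20 bp, 21 to 50 bp and 51 to 94 bp had medians of 122 (96.3 to 220), 266 (181 to 529) and 102 (74.6 to 323), and other members had 101, 97.9 and 89.9. The middle bin of the promoter members was also the highest in each replicate, with medians of 119 in replicate 1 and 148 in replicate 2. Elements lay toward the transcript start in 49 promoter members and away from it in 45.

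**Figure D3:**
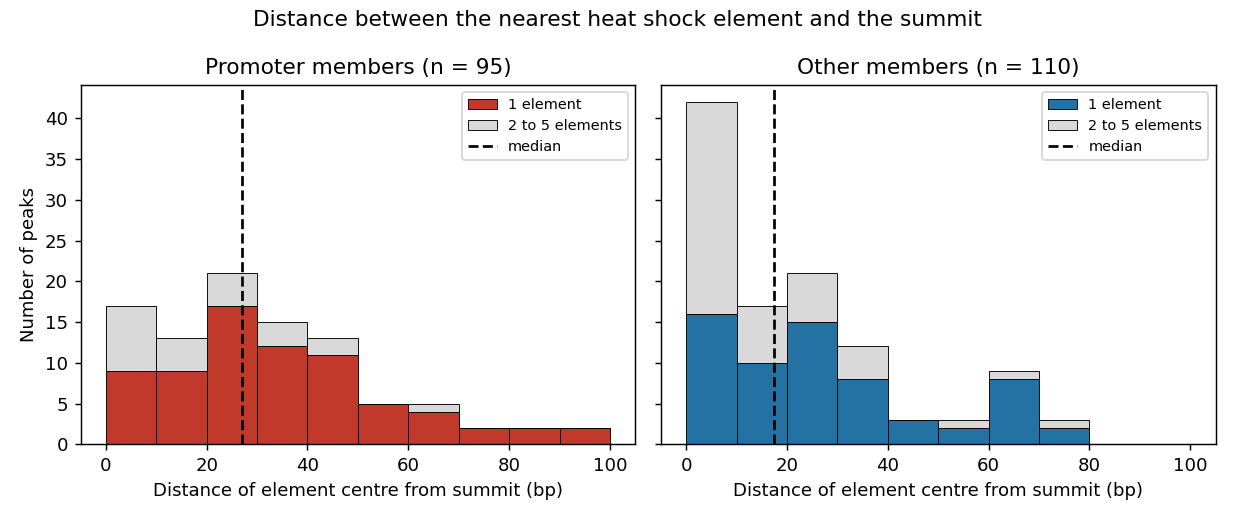
Number of members by distance (bp, bins of 10) between the summit and the centre of the nearest element, for promoter members (left) and other members (right). Coloured bars are members with 1 element, grey bars those with 2 to 5, and the dashed line is the median, 27 bp in promoters and 17.5 bp elsewhere.

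Promoter members had their highest medians a short way upstream of the start, though the intervals of all upstream bins overlapped. Their summits lay a median of 189 bp upstream (157 to 256) of the nearest protein-coding start, close to the 192 bp (172 to 215) of promoter peaks with no element. The 30 members at 250 to 101 bp upstream had a median signal of 339.7 (159 to 833), and the 14 at 100 to 1 bp upstream one of 319 (121 to 1349). Members at 500 to 251 bp upstream had 206 (107 to 345), those at 1000 to 501 bp 119.9 (93.1 to 219.6) and the 12 at 0 to 200 bp downstream 87.2 (76.9 to 105). Peaks with no element moved less over the same bins, with medians between 82.9 and 107, and were also highest at 250 to 101 bp upstream. Their interval there, 98.3 to 118, lay above those at 1000 to 501 bp upstream (81.9 to 90.5) and downstream (79.4 to 87.2). A window of 2 or more genes, as between divergent genes, held 32 of the 95 promoter members (33.7%, 25 to 43.7) and 326 of the 1210 promoter peaks with no element (26.9%).

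**Figure D4:**
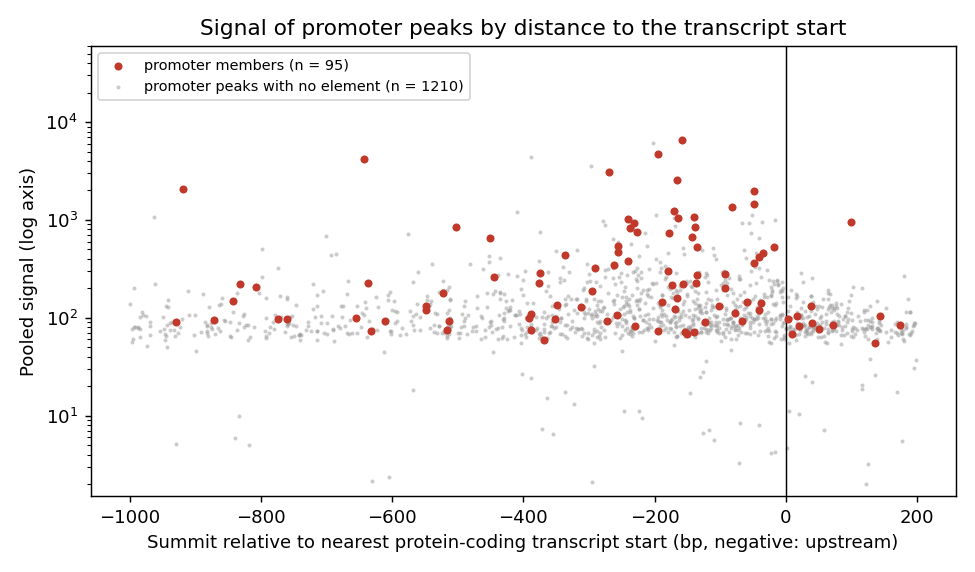
Pooled signal (log axis) of promoter members (large dots) and of promoter peaks with no element (small dots) by the position of the summit relative to the nearest protein-coding transcript start, with upstream positions negative. The highest median of the members, 339.7, is that of the 30 summits between 250 and 101 bp upstream, and that of the small dots in the same bin is 107.

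The letters that the element definition leaves free differed between elements of the members and elements at no pooled summit. Each GAA unit, read on its own strand, has a base before it. These bases were compared between the 137 members with 1 element and elements in the genome that stood alone and lay at no pooled summit. The latter are called unbound for short, though lying at no pooled summit does not show that HSF-1 is absent. Over the pair of units that face each other across the TTC to GAA gap, the base before GAA was T in 20 of 274 units of the members (7.30%, 4.77 to 11.0) and in 25.1% (24.3 to 25.8) of the unbound elements' units. It was A in 55.1% (49.2 to 60.9) of the members' units and in 38.6% (37.8 to 39.5) of the unbound. At the outer unit, which lies beyond the facing pair, T preceded GAA in 13.9% (9.06 to 20.6) of the members and 40.7% (39.5 to 41.9) of the unbound elements.

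No unit was preceded by T in 57 of 73 promoter members with 1 element (78.1%, 67.3 to 86.0) and in 52 of 64 other members (81.3%, 70 to 88.9), against 37.9% (35.5 to 40.3) of 1529 unbound promoter elements and 35.6% (34.2 to 37) of 4717 unbound elements elsewhere. Seen from the genome, a pooled summit lay within reach of 58 of the 637 lone promoter elements with no unit preceded by T (9.11%, 7.11 to 11.6), of 13 of 598 with 1 such unit (2.17%, 1.27 to 3.68) and of 0 of 327 with 2 (0%, Wilson interval 0 to 1.16, and up to 0.917% by the limit of 3 counts for a count of 0). Of the 40 with T before every unit 2 were reached (5.00%, 1.38 to 17). Elsewhere the shares were 2.95% (2.25 to 3.86) with no such unit, 0.319% (0.146 to 0.694) with 1, 0.476% (0.203 to 1.11) with 2 and 0.840% (0.148 to 4.61) with 3. The share of G and C in the 10 bases on each side of the element was 35.6% in the members and 31.2% in the unbound elements, and its part in these shares was not tested. This comparison was chosen after the data were seen.

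Among promoter members the signal went with the same letters. The 57 promoter members with no unit preceded by T had a median of 279 (200.1 to 459) by pooled signal, 118 in replicate 1 and 159 in replicate 2. The 16 with 1 to 3 such units had 102 (73.1 to 181), 41.4 and 59.6. In other members the pooled medians were 101 (80.5 to 125) with none and 94 (70.6 to 177) with 1 to 3, and these intervals overlapped. Of the 20 strongest promoter members with 1 element 19 had no unit preceded by T, and the exception was the peak at dnj-12 and mtx-1, with a pooled signal of 1996 and 1 such unit. The pooled ratio of 2.73 was 1.44 when only the list of replicate 1 was used, in which 7 promoter members with 1 to 3 such units remained. Letters matching a further unit beside the element did not sort the signal, with promoter medians of 180.2, 274 and 206 for 0, 1 and 2 matching letters of 3.

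The signals of the replicates followed each other across the members. Across members with a value in both ranked lists, signals had a Spearman rho of 0.931 in 92 promoter members and 0.594 in 105 other members, whose range of signal was narrower. These are descriptions across peaks of the same 2 samples, which share their repeats and their mappable sequence. Replicate 2 gave the higher value in 166 of 197 members, with a median ratio of 1.38 (1.30 to 1.46) to replicate 1, against 1.30 (1.28 to 1.32) over all pooled peaks, and the lists are not scaled to each other. No match was found in the ranked list of replicate 1 for 3 members and in that of replicate 2 for 5.

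**Figure D5:**
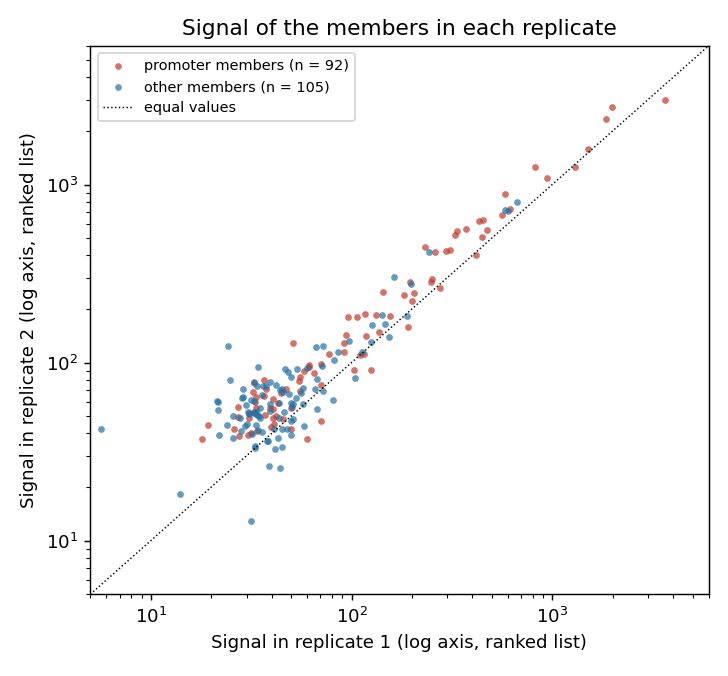
Signal of each member in replicate 1 and in replicate 2 (log axes), with the dotted line at equal values. Promoter members reach 3640.5 and 2970.4 and lie in a narrow band (Spearman rho 0.931), and other members gather below 100 in both replicates (0.594).

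Presence in the replicates' own thresholded lists followed the signal. Of all pooled peaks 39.5% were in the list of replicate 1, 58.9% in that of replicate 2, 34.5% in both and 36.1% in neither. Of the members 100 (48.8%, 42.0 to 55.6) were in the list of replicate 1, 155 (75.6%, 69.3 to 81.0) in that of replicate 2, 93 (45.4%, 38.7 to 52.2) in both and 43 (21%, 16 to 27.1) in neither. Promoter members were in both in 56 of 95 cases (58.9%, 48.9 to 68.3) and other members in 37 of 110 (33.6%, 25.5 to 42.9). Peaks with no element were in both in 27.5% of cases and peaks with 6 or more elements in 86.6%.

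In the list of replicate 1 alone were 7 members, and in that of replicate 2 alone 62. The lists were unequal over all peaks too. Of the 2935 pooled peaks, 1158 were in the list of replicate 1, 1728 in that of replicate 2 and 1012 in both. The 3 strongest of replicate 1 alone lay between fbxa-39 and fbxa-48 (60 in replicate 1 and no match in replicate 2), near Y48G8AR.8 (45.6 and 68.4) and near Y38F1A.4 (58.3 and 44.3). Each held 5 element starts, in windows masked over 67.7% to 81.6% of their length. The 3 strongest of replicate 2 alone lay 808 bp upstream of catp-7 (109.9 in replicate 2 and no match in replicate 1), at inos-1 (51.2 in replicate 1 and 129 in replicate 2) and near tmed-12 (24.3 and 125). Of these the tmed-12 peak had 5 starts in a window masked over its whole length, and the other 2 had 1 element.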

How the data were processed

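Chromatin immunoprecipitation with sequencing of HSF-1 fused to enhanced green fluorescent protein was done on whole young adults in 2 biological replicates, per the labels. The peak lists on ce11 are used as deposited. The deposited signal is a value that the peak caller gives to a peak, and lists are not scaled to each other. The interval ends and summit offsets deposited by the authors are positions in bp. The thresholded lists hold peaks kept by the irreproducible discovery rate, per the names in the deposited listings. The sources used here name no aligner, peak caller or control, and no control was analysed. The ranked tables of the series hold 16 columns of single-set values that name no sample, and they were left aside. A replicate's value at a pooled peak is that of the ranked peak with the nearest summit among those overlapping by 1 bp or more. The 19 intervals that repeat in the pooled list were counted by summit.

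Sequence, soft masking and Ensembl release 115 genes were of the same assembly. Positions are 1-based. Medians carry 95% order-statistic intervals and shares 95% Wilson intervals. A lone element had no other within 100 bp. No test was run across peaks. The members, gene lists and comparisons were chosen with earlier results of these data known. Named were the 10 strongest promoter and 10 strongest other members, all members at a listed gene, the 3 strongest in each replicate list alone and the strongest member with the longest run. Genes were matched by symbol, and 5 of 140 had no match, among them daf-21, the HSP90 gene annotated as hsp-90. Alternatives were other lists, windows, promoter definitions, counting and matching rules. Python 3.11.15 was used with numpy 2.4.6, pandas 2.3.3 and scipy 1.17.1, and the functions were tested on simulated data.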

Additional observations from a re-analysis of the deposited data

How the results depend on the processing

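No paired analysis was possible because the study has 1 group and no test between groups. Of 85 alternative values over 10 results, 64 stayed within the interval of the reported value, and of 8 alternative numbers of members 5 were within 1.5 times the reported number. The direction of the promoter to other ratio of median signal held except with 1 to 5 distinct sites, where it was 0.989 by pooled signal, 0.900 in replicate 2 and 1.04 in replicate 1. That setting also gave 458 members, 27.3% in promoters, a median distance of 7 bp, 72.7% within 20 bp, a median signal of 208 and 67.7% in both lists. It admits the peaks in repeats by its construction. With only 1 replicate's list, members numbered 105 to 167, the promoter share was 51.5% to 59.0%, and the pooled ratio by the letter before GAA was 1.44 to 2.61. The median signal was not computed with 1 replicate's list, whose scale is its own. Windows less than 50% masked left 132 members, 37.9% within 20 bp, a median signal of 129 and 53.8% in both lists. Elements within 50 bp gave 37.9% in promoters, a median distance of 13 bp and 63.0% within 20 bp, by construction. A promoter window from 500 bp upstream to 100 bp downstream held 35.6% and gave a replicate 1 ratio of 2.45, one from 1500 to 500 bp held 54.6%, and starts of all annotated genes gave 56.1%. Distance to the element's edge had a median of 17 bp. The alternatives for the letters were chosen after seeing the data. Depth is unknown, and 2 replicates of 1 group allow no error per peak.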
